A study of Oryza sativa with 6 samples.

Results

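Protein disulfide isomerases are enzymes of the endoplasmic reticulum (ER), the compartment where secreted and membrane proteins fold. They form, break and rearrange disulfide bonds between cysteines, so that a new protein reaches the bond pattern of its native fold. Plants carry a family of them, named PDIL in rice for PDI-like. In rice endosperm OsPDIL1-1 is known for helping proglutelin, the precursor of the main storage protein, to fold, and OsPDIL2-3 is known from the bodies that hold prolamin.

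The members described here are the genes whose symbol or synonym is OsPDIL2-1 or OsPDIL1-5. They were 3 of the 17905 genes that a probe set of the array named alone, and they had 4 of the 57258 tested probe sets. The symbol OsPDIL2-1 belongs to 2 loci in the rice gene table. LOC4337858 carries it with the synonym OsPDIL4-1 and is called OsPDIL2-1 below. LOC4327971 carries it beside the synonym OsPDIL1-4 and is called OsPDIL1-4. OsPDIL1-5 (LOC4340223) is also listed as OsPDIL3-1. OsPDIL2-1 and OsPDIL1-5 were singled out because their signals differed between the genotypes on these same arrays, and OsPDIL1-4 came in through the shared symbol. Their mutant and wild-type values are therefore a description, with no test, and support nothing further.

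RNA came from rice seedlings 11 days old, raised on agar that held 3% sucrose. Days had 14 h of light, kept at 28 °C, and nights lasted 10 h, kept at 24 °C. 3 samples carried a T-DNA insertion, a piece of foreign DNA, in CHR729, a chromatin remodelling gene of the CHD type, and 3 were wild type of the cultivar Hwayoung. The labels do not give the number of insertion lines or of seedlings per sample, and do not name the cultivar of the mutant. The labels name no batch and call the samples biological replicates without naming separate sowings, so the errors below measure the spread between these samples. Each sample had its own Affymetrix rice array, and each probe set gave a MAS5 signal, an intensity on a linear scale.

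Median signals lay between 67.6 and 71.1 over the 6 arrays, and the number of arrays limits the precision. The median log2 difference over all tested probe sets was 0.00. The tables used here name no probe set for CHR729 itself, and its transcript is not analysed here. Summed signals of 4 leaf marker genes, such as a chlorophyll a/b-binding protein gene (CAB2R) and a RuBisCO small subunit gene (RBCS), lay between 37706 and 39888 in the mutant and between 38151 and 39273 in wild type. Summed signals of 8 root marker genes, such as the silicon transporter gene Lsi1 and the potassium transporter gene OsHAK1, lay between 839 and 1030 in the mutant and between 1169 and 1189 in wild type. The root sums did not overlap, all 8 root genes had estimates below 0 and none passed the test with limma (1 had an unadjusted p under 0.05). Only Lsi1, OsHAK1 and YSL15 had signals near or above the array medians. In whole seedlings, fewer cells of a type and less RNA per cell cannot be told apart, and the part of the root share in the results below was not tested.

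OsPDIL2-1 had 2 probe sets, and both showed a higher signal in the mutant. In the first, whose Affymetrix suffix is plain _at, the signal was 811, 789 and 812 in wild-type replicates 1, 2 and 3, and 1093, 1174 and 1183 in the mutant replicates. The groups did not overlap, and the wild-type arrays lay close together while every mutant array was far above them. The means were 804 ± 12.9 (SD, n = 3) and 1150 ± 49.7, and the mutant arrays stood at 1.36, 1.46 and 1.47 times the wild-type mean. The log2 difference, mutant minus wild type on log2(signal + 32), was 0.50 with a standard error (SE) of 0.09 from the linear model.

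The second probe set of OsPDIL2-1 carries the suffix _s_at, which Affymetrix gives to probes shared by more than one transcript. Its signal was 1158, 1034 and 1396 in wild type and 1611, 1704 and 1577 in the mutant. The groups again did not overlap, but wild-type replicate 3 was well above the other wild-type arrays and nearest to the mutant arrays. That array did not stand out in the _at probe set. The means were 1196 ± 184 and 1631 ± 65.9, with a log2 difference of 0.45 (SE 0.11). Without wild-type replicate 3 this difference was 0.56, and without wild-type replicate 2 it was 0.35.

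OsPDIL1-5 had a lower signal, measured by a probe set that covers more than one transcript of the gene (suffix _a_at). The wild-type arrays gave 160.1, 192.6 and 198.7 and the mutant arrays 238.3, 246.7 and 248.3. All mutant arrays lay above all wild-type arrays, and wild-type replicate 1 was the lowest of the 6. The means were 183.8 ± 20.8 in wild type and 244.5 ± 5.35 in the mutant, so the mutant mean was 33.0% higher. The log2 difference was 0.36 (SE 0.10), and 0.28 without wild-type replicate 1.

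OsPDIL1-4, at LOC4327971, gave 218.1, 231.5 and 199.2 in wild type and 262.6, 277.4 and 299.6 in the mutant. Here too the groups did not overlap, with a gap between wild-type replicate 2 and mutant replicate 1. The means were 216.3 ± 16.2 and 279.9 ± 18.6, a mutant mean 29.4% higher, and the log2 difference was 0.33 (SE 0.09).

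**Figure D1:**
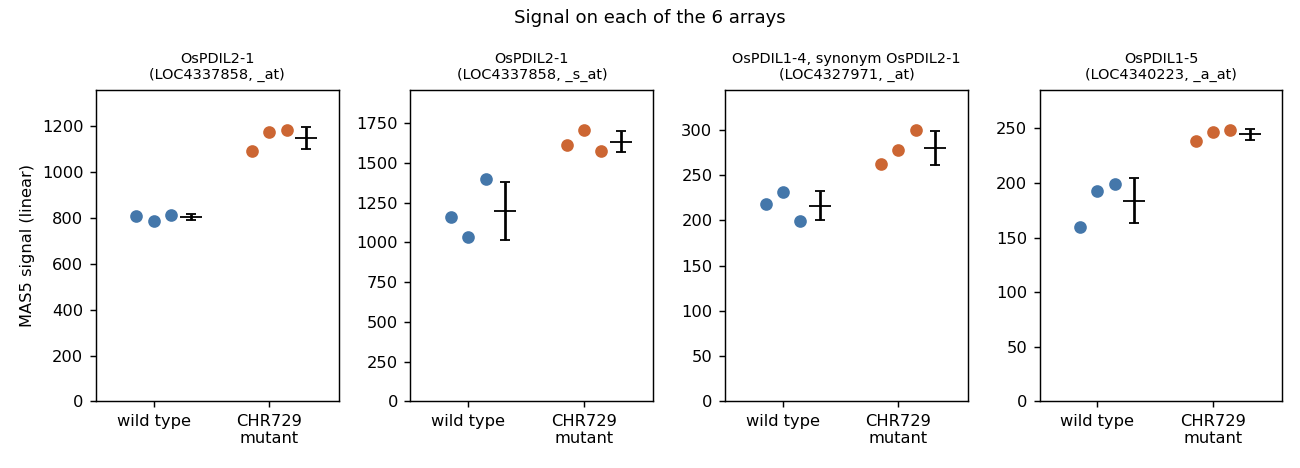
MAS5 signal (linear, each vertical axis from 0) on the 3 wild-type and 3 mutant arrays for the 4 probe sets of OsPDIL2-1, OsPDIL1-4 and OsPDIL1-5; points are arrays, and the black mark and bar give the mean ± SD. In each panel every mutant point lies above every wild-type point, and the wild-type spread is smallest in the _at probe set of OsPDIL2-1 (SD 12.9) and largest in the _s_at probe set (SD 184).

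The values that chose the members were adjusted p-values from limma under a threshold of 0.05, in a fit where 5.48% of all tested probe sets, and 9.96% of the probe sets that named 1 gene, rose. OsPDIL1-5 lay just inside that threshold with an adjusted p of 0.0383 and the _s_at probe set of OsPDIL2-1 with 0.0312. OsPDIL1-4 lay just outside it with 0.0508. In the fits that left out 1 array, the _s_at probe set of OsPDIL2-1 was outside in 5 of 6 and OsPDIL1-5 in 5 of 6, whereas the _at probe set of OsPDIL2-1 stayed inside in 6 of 6. For the first 2 probe sets, wild-type replicate 3 was the array whose omission kept the value inside. OsPDIL1-4 was outside in 6 of 6 of these fits, and inside in 4 of the 8 other alternatives. All 4 probe sets of the members had the mutant arrays above the wild-type arrays with no overlap. That pattern was held by 14.0% of all tested probe sets. The members were chosen on this contrast, so nothing is read from these shares, the adjusted p-values or the counts of fits.

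The probe sets of the members also differed in how much replicates of 1 genotype varied. This spread enters the SE behind the adjusted p-values that chose OsPDIL2-1 and OsPDIL1-5. A low spread therefore partly restates that choice, and nothing is read from it. The pooled SD within genotypes was 0.05 on the log2 scale for the _at probe set of OsPDIL2-1, and 4.68% of the 1497 probe sets of like signal had a lower one. It was 0.16 for the _s_at probe set of the same gene, where 69.2% of 983 probe sets of like signal had a lower one. OsPDIL1-5 had 0.10 and OsPDIL1-4 had 0.09, with lower values in 38.1% and 29.9% of probe sets of like signal.

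The comparison with the other genes that carry a PDIL symbol asks whether the rest of the family differed between mutant and wild type. The rice gene table holds 12 such genes. Of these, 11 had a probe set, and 8 of the 11 are not members. None of the 8 passed the test with limma, where 10.9% of all genes rose and 8.71% fell (brightest probe set of each gene, adjusted p under 0.05). At an unadjusted p under 0.05 there were 4 of 8, each with the mutant higher. Over all genes the share was 38.2% in either direction, and 3611 of 17905 genes had the mutant higher. The same 4 had groups that did not overlap with the mutant higher, a pattern seen in 23.1% of all genes. The median log2 difference of the 8 was 0.17, and 0.01 over all genes. 7 of the 8 estimates were above 0, against 51.7% of all genes, and the genes share the same 6 arrays.

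OsPDIL1-1, the isomerase known from glutelin folding, had signals of 3903, 4018 and 3849 in wild type and 4357, 4286 and 4682 in the mutant. The groups did not overlap, and the log2 difference was 0.18 (SE 0.07, limma adjusted p = 0.193, 95% interval from 0.01 to 0.34). OsPDIL2-3 (LOC4347226), the isomerase of prolamin bodies, had 987, 894 and 941 in wild type and 1151, 1121 and 1180 in the mutant. Its log2 difference of 0.28 (SE 0.09) missed the threshold with a limma adjusted p of 0.0688. It passed under quantile normalization (0.0496), without the intensity trend (0.0321) and without the dimmest probe sets (0.0429). Its probe set has the suffix for probes that may also bind similar sequences.

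OsPDIL5-1 at LOC4332486 (also OsPDIL6-1) was measured at 506, 533 and 467 in wild type and at 573, 626 and 666 in the mutant. The groups were apart, with a log2 difference of 0.29 (SE 0.10, limma adjusted p = 0.0937). OsPDIL1-2 was dim, with 48.0, 49.3 and 49.8 in wild type and 57.5, 68.1 and 69.0 in the mutant, all below or near the array medians. Its log2 difference was 0.25 (SE 0.08, limma adjusted p = 0.0602), and it was 0.39 and 0.12 with a lower and a higher offset, where it did not pass. It passed without the dimmest probe sets (0.0412).

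The remaining 4 genes overlapped between the genotypes. OsPDIL5-4 had a log2 difference of 0.16 (95% interval from -0.06 to 0.38), OsPDIL1-3 had 0.11 (interval from -0.11 to 0.33) at a dim 43.7 in wild type, and OsPDIL2-2 had 0.09 (interval from -0.11 to 0.30). OsPDIL5-2 was the only 1 of the 11 genes with an estimate below 0, at -0.06 (SE 0.09, interval from -0.26 to 0.15). The intervals of all 4 include 0.

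**Figure D2:**
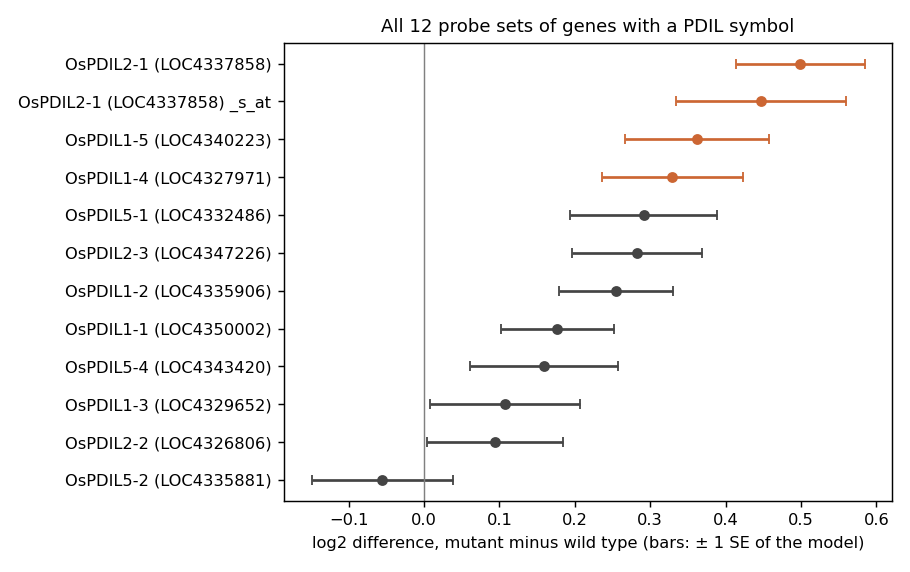
Log2 difference, mutant minus wild type on log2(signal + 32), for the 12 probe sets of genes with a PDIL symbol; orange marks the 4 probe sets of OsPDIL2-1, OsPDIL1-5 and OsPDIL1-4, grey the other 8 genes, and bars are ± 1 SE of the model. Estimates run from -0.06 at OsPDIL5-2 to 0.50 at OsPDIL2-1, and 11 of the 12 are above 0; the orange points were chosen from these values.

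Disulfide isomerases act beside other helpers of the ER. BiP and its DnaJ partners (ERdj) hold unfolded chains, calreticulin holds glycoproteins, oligosaccharyltransferase subunits such as STT3 and DAD1 attach the sugar, and DER1 and HRD1 remove what fails to fold. When unfolded protein builds up, IRE1 splices the RNA of OsbZIP50, and OsbZIP39 and OsbZIP60 are related factors held in the ER membrane, all of them known to raise folding genes. The list of these genes had 17 members on the array, of which 0 rose and 3 fell with limma at an adjusted p under 0.05, where 10.9% of all genes rose and 8.71% fell. At an unadjusted p under 0.05 there were 6 higher and 5 lower, against 38.2% of all genes in either direction. The median log2 difference was 0.08. Groups were apart in 5 of 17 with the mutant higher and in 6 of 17 with it lower, against 23.1% and 19.8% of all genes.

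OsbZIP60 at LOC4344086 fell from 428, 365 and 377 in wild type to 294, 257 and 238 in the mutant, with no overlap (log2 difference -0.52, SE 0.10, limma adjusted p = 0.0114). OsbZIP39 fell from 1121, 1177 and 1240 to 910, 835 and 864, also with no overlap (log2 difference -0.43, SE 0.09, limma adjusted p = 0.0134). The probe sets of OsbZIP60 (_s_at) and OsbZIP39 (_x_at) have suffixes for probes that may also bind other transcripts. OsERdj3A, also named OsDjC27, fell from a dim 45.5 ± 7.14 to 31.0 ± 2.22 (log2 difference -0.30, SE 0.08, limma adjusted p = 0.0412), and it was -0.53 and -0.13 with the lower and the higher offset. None of these 3 falls passed without mutant replicate 2 (adjusted p between 0.0670 and 0.151) or without mutant replicate 3 (between 0.0550 and 0.143), and OsbZIP39 and OsERdj3A also missed when wild-type replicate 2 was left out. OsERdj3A missed in 5 of the 6 such fits and without the intensity trend. The number of genes of the list past the threshold was 0 when mutant replicate 2 or mutant replicate 3 was left out. It was 1 when wild-type replicate 2 was omitted, and 6 when wild-type replicate 3 was omitted.

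The other 14 genes of the list did not pass, 10 with estimates above 0 and 4 below, and they are named after their values had been seen. OsBiP1 had 2257, 2010 and 1815 in wild type and 2386, 2406 and 2603 in the mutant, with a log2 difference of 0.28 (SE 0.10, limma adjusted p = 0.106). CRT1, a calreticulin gene listed under the symbol CRO1, had 3843, 4186 and 4344 against 4973, 4989 and 4884, a log2 difference of 0.26 (SE 0.08, limma adjusted p = 0.0570). STT3B and DAD1 had log2 differences of 0.34 (SE 0.10) and 0.40 (SE 0.13) with limma adjusted p of 0.0673 and 0.0770, and the groups overlapped in DAD1. The brighter probe set of STT3A had 0.21 (limma adjusted p = 0.217) and the dimmer one -0.06 (0.813). On the other side of 0, with groups that did not overlap, were OsBI-1, an ER membrane gene known for holding back cell death, at -0.33 (limma adjusted p = 0.0707), DER1 at -0.28 (0.115) and HRD1 at -0.14 (0.406). OsIRE1 had a log2 difference of -0.19 (limma adjusted p = 0.332) and OsbZIP50 had 0.08 (0.756), with overlapping groups in both. OsBiP4, OsERdj2 and OsERdj7 had 0.11, 0.08 and 0.05, also with overlap. Signals of the array do not tell spliced from unspliced OsbZIP50 RNA.

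**Figure D3:**
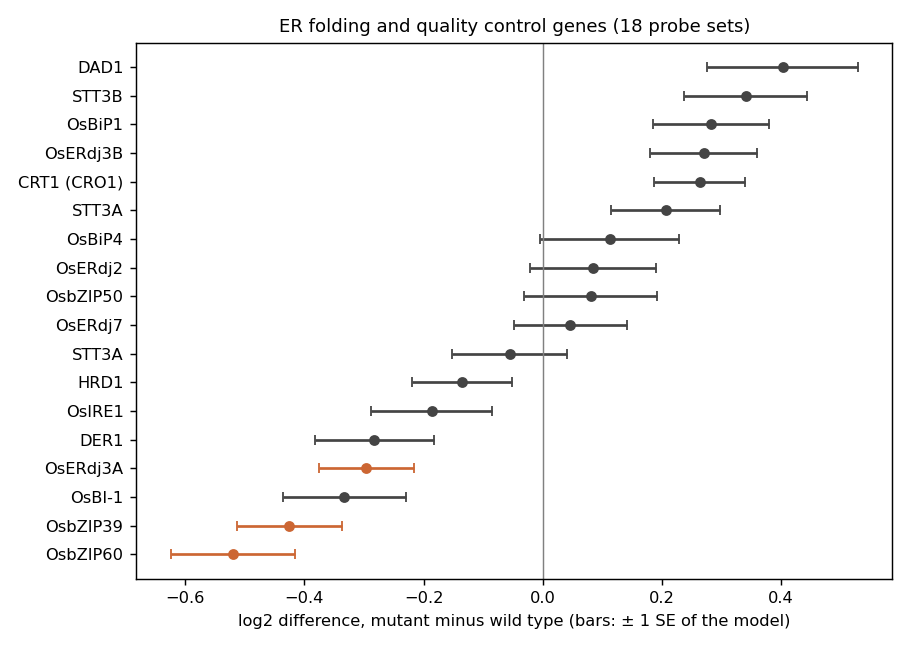
Log2 difference, mutant minus wild type on log2(signal + 32), for the 18 probe sets of 17 genes of ER folding and quality control; orange marks genes with a limma adjusted p under 0.05 and bars are ± 1 SE of the model. The 3 orange points, OsbZIP60 (-0.52), OsbZIP39 (-0.43) and OsERdj3A (-0.30), lie below 0, and none of the other 14 genes passed, with OsBI-1 (-0.33) lowest and DAD1 (0.40) highest among them.

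By the gene table (assembly ASM3414082v1), the nearest protein-coding neighbour of OsPDIL2-1 on one side is another folding gene, OsERdj3B, with a tRNA gene between them. OsERdj3B had 322.1, 292.2 and 292.9 in wild type and 389.2, 351.4 and 372.9 in the mutant. Its groups did not overlap, and its log2 difference of 0.27 (SE 0.09) missed the threshold (limma adjusted p = 0.0939). LOC4337857, the neighbour on the other side, had a log2 difference of 0.08 (limma adjusted p = 0.654). The measured protein-coding neighbours next to OsPDIL1-5 and OsPDIL1-4, LOC4340222 and LOC4327972, had -0.21 (0.238) and -0.04 (0.923), and their groups overlapped.

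Storage proteins are known as clients of isomerases in the grain. Of 10 genes matched by storage protein names 0 rose and 1 fell with limma, where 10.9% of all genes rose and 8.71% fell. An unadjusted p under 0.05 was found for 1 of them, against 38.2% of all genes. GluA-2, a glutelin gene, fell from 355, 393 and 360 in wild type to 243, 233 and 256 in the mutant (log2 difference -0.54, SE 0.09, limma adjusted p = 0.00467). A dim second probe set of GluA-2, with 29.5 in wild type and 35.2 in the mutant, had a difference of 0.13 (limma adjusted p = 0.375). The prolamin gene PROLM25 and the glutelin genes GluA-1, GluA-3, GluB-4 and GluD-1 stayed below the array medians in mutant and wild type, and RAG1, an allergen gene, lay near them. The brightest of the list was GLB1, at 881 ± 41.4 in wild type and 766 ± 24.1 in the mutant. Its groups did not overlap, and its log2 difference of -0.19 did not pass (limma adjusted p = 0.227). GLB1 was matched by that name alone, and no name listed for it says globulin. Whether it encodes a storage protein is not established here. The allergen gene RAG2 and the glutelin gene GluB-5, at 143 and 97.2 in wild type, also lay above the medians and did not pass.

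Thioredoxins and glutaredoxins share the fold of the isomerase domain, and most work on thiols outside the ER. The list of 45 genes matched by these names also holds thioredoxin reductase genes (OsNTRA, NTRB, OsNtrC), the APR-like genes OsAPRL1 to OsAPRL5, and OsQSOX1, a sulfhydryl oxidase gene of the secretory pathway. Of the 45 genes 4 rose and 3 fell with limma, where 10.9% of all genes rose and 8.71% fell, and the median log2 difference was -0.08. The glutaredoxin gene GRXS6 rose from 467.1 ± 70.3 to 1002 ± 51.0, the largest rise of the list (log2 difference 1.06, SE 0.11, limma adjusted p = 0.000464). GRXS5 fell from 2920 ± 269 to 1511 ± 296 (log2 difference -0.95, SE 0.14). The nucleoredoxin gene OsNrx1-2 rose by 0.49 (SE 0.11), GRXC8 by 0.36 (SE 0.08) and the thioredoxin h gene OsTrxh2-2 by 0.33 (SE 0.09) on the log2 scale. The thioredoxin m gene OsTrxm5, of the chloroplast type, fell by 0.39 (SE 0.09) and GRXS9 fell by 0.40 (SE 0.10) on the log2 scale.

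GRXS6 and GRXS5 passed in every fit that left out 1 array, whereas the other 5 were each lost in 2 to 5 of these 6 fits. The list then held between 2 and 8 called genes. The lowest count came without mutant replicate 3, and it was 3 without mutant replicate 2, 4 without mutant replicate 1 and 3 when wild-type replicate 2 was left out. A second OsTrxm5 probe set had -0.22 (limma adjusted p = 0.231).

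To place the members' patterns among other transcripts, named genes were ranked by likeness of profile. Likeness was the root mean square distance over the 6 arrays between log2(signal + 32) values centred on each gene's own mean, so a small distance means that a gene went up and down on the same arrays by the same amount. Between 1344 and 1772 named genes were compared with each member. All share the 6 arrays, and the members were chosen for a genotype difference, so a small distance partly restates that difference.

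The gene closest to OsPDIL1-4 among 1772 was its relative OsPDIL5-1 (LOC4332486), at a distance of 0.025, followed by FAS2 and RR42 at 0.030. In OsPDIL1-4 and in each of these genes the lowest array was wild-type replicate 3 and the highest was mutant replicate 3. The ranking by likeness selects for such a match. The genes closest to OsPDIL1-5 were COPZ2, which encodes a subunit of the coatomer of vesicles between Golgi and ER, the sugar transporter gene OsSWEET2b and the arginine methyltransferase gene PRMT1, at 0.040, 0.042 and 0.047. The genes closest to the _s_at probe set of OsPDIL2-1 were HACD, which encodes a dehydratase of fatty acid elongation in the ER, the calmodulin gene CaM-3 and SCS-alpha, at 0.051, 0.059 and 0.063.

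Distances between members were larger than those to these genes. Those were the smallest among all named genes compared, so nothing is read from that order. The distance was 0.12 between OsPDIL1-5 and OsPDIL1-4. With the _s_at probe set of OsPDIL2-1, the distance was 0.14 to OsPDIL1-5 and 0.20 to OsPDIL1-4. The _at probe set of OsPDIL2-1 was not compared. Wild-type replicate 3 was the lowest wild-type array for OsPDIL1-4 and the highest for OsPDIL1-5 and the _s_at probe set of OsPDIL2-1.

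**Figure D4:**
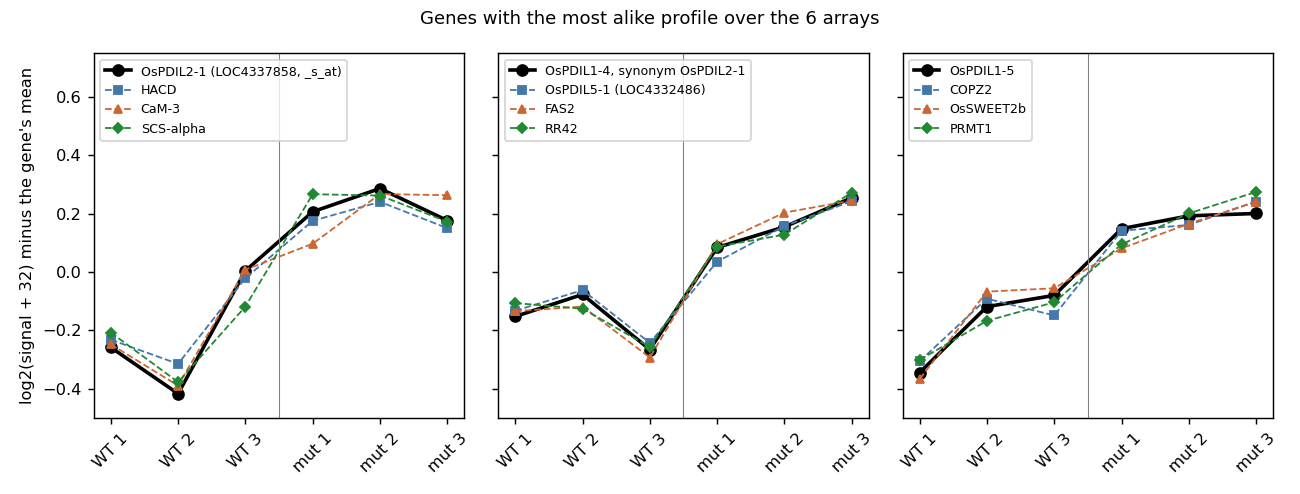
Values of log2(signal + 32) minus the gene's mean over the 6 arrays (WT, wild type; mut, CHR729 mutant), for each member in black and its 3 most alike named genes in colour; lines only join the points of 1 gene. The distances run from 0.025 (OsPDIL5-1 to OsPDIL1-4) to 0.063 (SCS-alpha to OsPDIL2-1), and wild-type replicate 3 is low in the middle panel and high among wild-type arrays in the black line of the other panels.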

How the data were processed

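Signals of 3 CHR729 mutant and 3 wild-type seedling samples were used as deposited: the authors made them with MAS5, per the submitters' processing notes, as probe set intensity on a linear scale. The sources used here do not state the MAS5 settings or its scaling, and no detection calls were used. The submitters state that they tested with SAM.

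123 control probe sets were left out and 57258 were tested, with no filter on dim ones. log2(signal + 32) was compared in limma 3.58.1 under R 4.3.3 (lmFit, eBayes with an intensity trend, 2-sided, Benjamini-Hochberg over all tested probe sets). In data simulated for this comparison over 57258 probe sets, 30 of 50 changes of 1.5-fold and 48 of 50 of 2-fold were called. The simulation changed 200 probe sets, all with a mean signal above the median, whereas 5672 were called in the real data. Its rates therefore do not cover dim probe sets. Probe sets were joined to genes by the array's public annotation and the rice gene table (pandas 2.3.3, Python 3.11.15; plots by matplotlib 3.10.9): 22436 named 1 gene, 95 several and 34727 none. A gene counts through its brightest probe set.

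Lists are patterns on symbols. Narrower patterns left out some matches that only share letters (bip followed by 3 digits, phytoglobins and OsMADS3). GLB1 stayed among the storage protein genes by its name alone. The SET-domain gene OsTrx1 was removed by name. Members and lists were chosen with earlier results of these data known. Named were all PDIL genes, list members past the threshold, and the 3 genes most alike to each member, at or above the median signal and with an SD over arrays of at least 0.5 times the member's; others were chosen after their values were seen. No sequence was used.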

Additional observations from a re-analysis of the deposited data

How the results depend on the processing

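A lower and a higher offset, array medians subtracted, quantile normalization, array weights, a fit without the intensity trend, a block by replicate number, omission of the 40% dimmest probe sets and omission of each array were tried, 14 alternatives in all. None changed the sign of the members, of the other PDIL genes or of the list genes past the threshold that kept a value. The difference of OsPDIL1-5 was 0.26 with the higher offset, and those of the dim OsPDIL1-2 and OsERdj3A moved more, from 0.39 to 0.12 and from -0.53 to -0.13 between the lower and the higher one. The count of other PDIL genes called was 1 without the trend, 1 with quantile normalization and 2 without the dimmest probe sets, and 0 in every other alternative. ER folding genes called were 5 without the trend (3 rose, 2 fell) and 5 with quantile normalization (2 rose, 3 fell). With 1 array left out, the log2 difference of OsPDIL2-1 lay between 0.35 and 0.56 and that of OsPDIL1-5 between 0.28 and 0.41. ER folding genes called then ranged from 0 (without mutant replicate 2 or 3) to 6 (without wild-type replicate 3), with 1 without wild-type replicate 2, thioredoxin and glutaredoxin genes from 2 to 8, and all probe sets called from 2274 to 6349, beside 5672 with all arrays. Fewer arrays enter these fits, and no other cause was tested. With the replicate number as a block 0 other PDIL genes, 3 ER folding genes, 1 storage protein gene, 6 thioredoxin and glutaredoxin genes and 5115 probe sets were called, and the adjusted p of OsPDIL1-5 was 0.0557. The labels do not say that equal numbers mark shared material, and the deviations of same-numbered arrays from their group means correlated at 0.0066, -0.166 and 0.0905, so the numbers were not treated as pairs. Counting a gene through any of its probe sets, an alternative chosen after seeing the data, gave 0, 3, 1 and 9 genes in the 4 lists. Signal limits OsPDIL1-2, OsPDIL1-3 and OsERdj3A, which lie at or below the array medians.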
